A study of Mus musculus with 23 samples.

Results

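The step from day 4 to day 6 of dextran sodium sulphate (DSS) was described by comparing the 6 colon arrays of day 6 with the 6 of day 4, chosen by the day in their titles, 12 of the 23 arrays of the study. Every animal was a C57BL/6J mouse, a common inbred laboratory strain, of 12 to 14 weeks. The mice of both days drank water with 3% DSS, for 4 or for 6 days, and separate cohorts gave tissue at each day, so the 12 arrays are 12 animals. The other arrays were 5 of untreated colon (day 0) and 6 of day 2 of the same DSS dose, and they entered the same fit. The labels name no genetic change in any group. The piece of colon, the hour of collection and the sex of the mice are not stated in the labels. Arrays are called here by day and mouse number. A signal is the authors' MAS5 intensity of a probe set, on a linear scale with the same trimmed mean on each array.

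DSS is a sulphated polysaccharide that damages the colonic epithelium and lets bacteria reach the tissue beneath it. Resident macrophages, fibroblasts and epithelial cells then release cytokines and chemokines, neutrophils and monocytes leave the blood along chemokine gradients, and proteases, reactive oxygen and acute phase proteins accumulate in the wall. The colon itself is a lining of absorptive, goblet, enteroendocrine and tuft cells over stroma, smooth muscle and enteric nerves, so RNA of the whole tissue mixes all of these. In such RNA, fewer cells of a type and less RNA per cell cannot be told apart.

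Some arrays stood apart before any test was made. The label colon was checked by its markers: the summed signal over the 12 arrays was at least 162138 for 23 pan-epithelial genes, 162026 for 24 goblet cell genes and 117311 for 17 smooth muscle genes. Markers of stratified squamous epithelium and of skeletal muscle were present as well on most arrays. Day 4 mouse 8 lacked these neighbouring tissues: its mean over 21 squamous genes was 5.94 on the log2(signal + 16) scale against 9.88 to 10.97 on the other 11 arrays. Day 4 mouse 8 also had the lowest correlation across genes with the mean of the other arrays (0.951, against 0.966 to 0.987). Over 18 skeletal muscle genes the mean was 6.38 in day 4 mouse 8 and 7.63 in day 6 mouse 4. The other arrays of days 4 and 6 lay at 9.66 to 12.08 in that list. Day 6 mouse 1 had the most pancreatic RNA (mean 12.53 over 8 genes, 8.86 to 10.2 on the other 11). Hybridization controls, the spiked-in transcripts of bacteria and phage, were dimmer at day 4 (10.8 to 11.13, log2) than at day 0 (11.33 to 11.49) without overlap, and lay at 10.65 to 11.12 at day 6. The log2 ratio of 3' to 5' probe sets of beta-actin was 0.611 ± 0.0642 (SD, n = 6 arrays) on the day 4 arrays and 0.512 ± 0.0426 (SD, n = 6 arrays) on those of day 6 (exact permutation p = 0.0152, adjusted p = 0.0606 over 4 quality measures). The smallest p of this test with 6 against 6 arrays is 0.00217. For the Gapdh ratio, the hybridization controls and 18S rRNA the adjusted p was 0.309, 0.309 and 0.615.

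Between day 4 and day 6, 1133 of 12463 genes rose (9.09%) and 1712 fell (13.7%) at an adjusted p of 0.05 or less. A change of at least 2-fold was seen in 228 of the genes that rose and in 104 of those that fell, so a larger share of the rises reached that size. The 6 arrays of day 6 all lay above the 6 of day 4 for 390 genes (3.13%) and all below for 561 (4.5%), and 927 of these genes were also called. Over all genes tested the median log2 change was -0.03. Centring each array on its median moved that value to -0.10 and left 719 genes higher and 2246 lower, so that 24.2% of the calls were rises in place of 39.8%. Leaving out day 4 mouse 8 and day 6 mouse 1 gave 898 rises and 1270 falls, and no call in either setting had the opposite direction.

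The 15 largest rises included genes of neutrophils, of their chemoattractants and of the acute phase. S100a9 and S100a8 encode the subunits of calprotectin, the abundant antimicrobial protein of neutrophil cytosol. S100a9 had a lowest, median and highest signal of 47, 139 and 233 at day 4 and of 729, 3455 and 4996 at day 6, and S100a8 of 69.6, 229 and 319 at day 4 and of 988, 4736 and 6459.6 at day 6. For both genes every day 6 array exceeded every day 4 array, with day 6 mouse 3 as the lowest of its day at a signal several-fold below the other 5. The log2 change was 4.37 ± 0.53 (SE) for S100a9 (adjusted p = 8.35e-06) and 4.19 ± 0.48 for S100a8 (adjusted p = 4.80e-06), while the step from day 0 to day 4 did not pass the test for either (1.09 ± 0.56, adjusted p = 0.186, and 0.80 ± 0.50, adjusted p = 0.296). Hp, haptoglobin, which binds free haemoglobin, rose most of all genes without overlap, from 5.09, 52.4 and 109.6 to 647, 1781 and 5082 (lowest, median and highest signals), by 4.85 ± 0.61 on the log2 scale (adjusted p = 1.19e-05). Because 16 was added to each signal before the logarithm, these fold changes understate those of dim genes.

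Of the 15 genes with the largest rises among those called without overlap, Cxcl2, Chil3, Acod1, Clca4b, Il1b, Cxcl5, Saa3, Ptx3, Clec4e, Mmp10, Il6 and Reg3g follow these 3. Acod1 makes itaconate in activated macrophages and went from 7.46 to 243 in median signal (log2 change 3.43 ± 0.34 (SE), adjusted p = 1.31e-06). Clca4b, of the calcium-activated chloride channel regulator family, went from 169, 451 and 847 at day 4 to 1189, 5791 and 11353 at day 6 (log2 change 3.38 ± 0.46 (SE), adjusted p = 2.04e-05). Its groups did not overlap either. Among the day 6 animals, mouse 3 had the lowest signal for 12 of these 15 genes and mouse 29 for the other 3, while mouse 21 had the highest for 7.

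**Figure D1:**
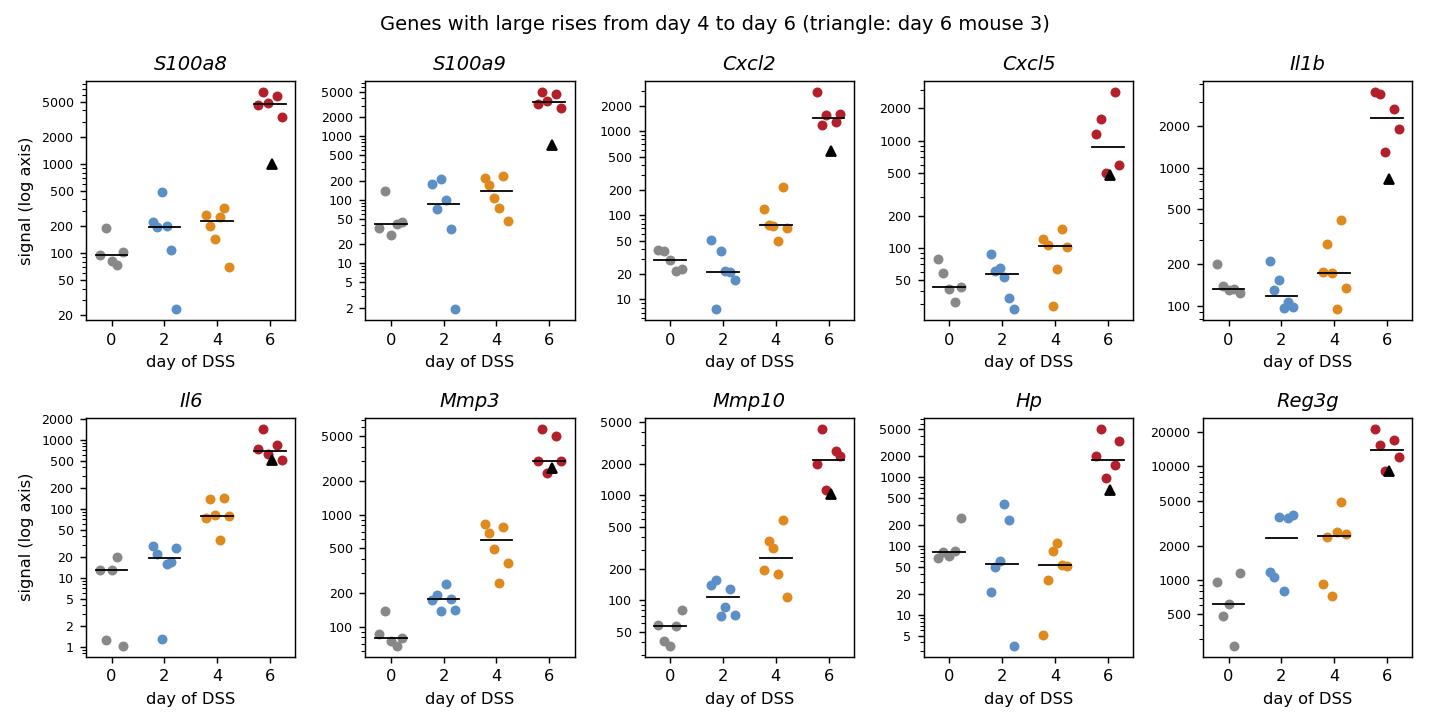
Signal of 10 genes with large rises on each array (points, log axis) against the day of DSS, with the median of each day as a line. All 6 arrays of day 6 lie above all 6 of day 4 for each gene, and the triangle, day 6 mouse 3, is the lowest of its day for most of them.

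The promoters of the 4 genes with the largest rises that have an entry in RefSeq's table (GRCm38.p6) are shown because these genes moved together; each is the 250 bases before the annotated start, 5′ to 3′ on the gene's strand, with matches to the motifs named below in capitals.
S100a9 (chr3:90695722-90695971, minus strand): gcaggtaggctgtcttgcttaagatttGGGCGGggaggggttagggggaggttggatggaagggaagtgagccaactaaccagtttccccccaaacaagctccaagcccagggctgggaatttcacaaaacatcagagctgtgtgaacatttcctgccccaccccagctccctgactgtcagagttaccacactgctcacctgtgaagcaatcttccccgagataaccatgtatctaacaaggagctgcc
S100a8 (chr3:90668821-90669070, plus strand): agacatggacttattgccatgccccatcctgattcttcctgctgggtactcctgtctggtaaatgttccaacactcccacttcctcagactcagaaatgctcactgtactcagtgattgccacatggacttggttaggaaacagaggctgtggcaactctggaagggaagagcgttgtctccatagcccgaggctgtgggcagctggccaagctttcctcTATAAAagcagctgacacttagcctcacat
Cxcl2 (chr5:90903649-90903898, plus strand): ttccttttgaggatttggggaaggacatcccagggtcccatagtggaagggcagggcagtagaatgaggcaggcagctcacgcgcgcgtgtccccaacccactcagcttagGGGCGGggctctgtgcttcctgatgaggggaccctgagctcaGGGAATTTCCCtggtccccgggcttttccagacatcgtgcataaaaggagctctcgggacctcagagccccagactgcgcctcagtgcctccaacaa
Chil3 (chr3:106167565-106167814, minus strand): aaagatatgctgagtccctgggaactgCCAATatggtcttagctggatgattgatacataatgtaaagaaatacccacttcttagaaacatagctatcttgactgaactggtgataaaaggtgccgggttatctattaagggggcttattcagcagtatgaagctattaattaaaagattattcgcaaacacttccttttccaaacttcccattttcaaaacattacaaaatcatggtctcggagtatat

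The motifs searched on both strands were TATAAA (the TATA box), CCAAT (bound by the factor NF-Y), TTGCGCAA (bound by C/EBP factors, which drive myeloid and acute phase genes), TGACTCA (bound by AP-1), GGGCGG (bound by Sp factors) and the consensus of NF-kappaB, the factor downstream of Toll-like and cytokine receptors. The S100a8 window held TATAAA at 30 to 25 bases before the start. In the Cxcl2 window GGGCGG stood at 139 to 134 bases before the start and the NF-kappaB consensus at 97 to 88, overlapped by a match of the same consensus on the other strand at 96 to 87. GGGCGG was found at 223 to 218 in the S100a9 window and CCAAT at 223 to 219 in that of Chil3, and no other listed motif was matched in these windows. Across the 10024 tested genes with a window, TATAAA occurred in 7.27% (13.0% over all 27025 windows of the table), against 12.2% of the 886 windows of genes that rose and 24.0% of the 171 of genes that rose at least 2-fold. It occurred in 13.9% of the 79 windows of genes that fell at least 2-fold, and in 7.96% of the 1382 of all that fell. The NF-kappaB consensus was matched in 4.39% of the windows of tested genes (3.75% over the table), in 7.11% of those of genes that rose and in 9.36% at a rise of at least 2-fold, against 3.91% of those of genes that fell. TGACTCA was in 3.33% of those of tested genes (4.43% over the table), 6.21% of those of genes that rose and 2.89% of those of genes that fell. GGGCGG was rarer in the windows of strongly changed genes of either direction (32.7% at a rise and 34.2% at a fall of at least 2-fold) than in those of all tested genes (58.2%), and about as frequent there as over the whole table (32.9%). CCAAT (35.6%, 34.0% and 36.7% of the windows of tested genes, those of genes that rose and those of genes that fell) and TTGCGCAA (0.229%, 0.564% and 0.0724%) complete the list, with 34.5% and 0.17% over the table. These are shares of matches in 1 window per gene, without a test.

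Most pan-leukocyte markers rose. Of 19 measured, 16 rose (84.2%, against 9.09% of all genes) and none fell, with a median log2 change of 0.85, and their summed signal went from 10790.2 to 16416 over the day 4 arrays to 19104 to 35439.9 over those of day 6. At day 4 the mean of the list was 9.25 to 9.31 (log2) in mice 1, 3 and 4 and 8.69 to 8.82 in mice 6, 7 and 8. Srgn, the granule proteoglycan serglycin, had signals of 1286, 1741 and 2170.2 at day 4 and 2587, 4505 and 5965 at day 6 (lowest, median and highest; log2 change 1.33 ± 0.17 (SE), adjusted p = 1.27e-05). The actin regulator Coro1a (1.29 ± 0.21, adjusted p = 1.15e-04), the Fc receptor gamma chain Fcer1g (1.28 ± 0.22, adjusted p = 1.73e-04) and the signalling adaptor Tyrobp (1.22 ± 0.17, adjusted p = 2.58e-05) rose too. None of these 4 overlapped between the days.

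Neutrophil genes rose in 12 of 15 measured cases and fell in none, with a median of 1.90. Of the 15, 6 passed the filter on dim probe sets only through the day 6 arrays, where they were high, and all 6 were among the rises. Of the other 9, which passed it on the arrays of days 0, 2 and 4 alone, 6 rose, with a median of 1.25, beside 8.72% of the 12183 genes that passed in the same way. A stricter filter kept 2 members, of which 1 rose. In all, 9 of the 15 also rose by more after day 4 than between day 2 and day 4 in the test of the difference between the steps (4.02% of all genes). That count is over all 15, with the 6 that passed the filter because they were high at day 6, and was not made for the other 9 alone. Clec4e, a lectin receptor for mycobacterial and damaged-cell glycolipids, went from 27.1 to 414 in median (log2 change 3.03 ± 0.39 (SE), adjusted p = 1.38e-05). Hdc, the enzyme that makes histamine, had signals of 6.33, 10.5 and 43 at day 4 and 55.3, 179.6 and 217 at day 6, with mouse 3 again lowest (log2 change 2.42 ± 0.32 (SE), adjusted p = 1.64e-05). Both genes separated the days without overlap. The list was measured incompletely, since 30 genes were listed, 24 were matched to a probe set and 15 passed the filter on dim probe sets.

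Monocyte and macrophage genes rose in 24 of 27 cases (88.9%, against 9.09% of all genes) and fell in none, with a median of 0.83. Of the 26 that passed the filter without the day 6 arrays 23 rose, with a median of 0.82. Chil3, a chitinase-like protein secreted by myeloid cells, had lowest, median and highest signals of 13.9, 35.2 and 58 at day 4 and 86.2, 643 and 1586 at day 6 (log2 change 3.56 ± 0.49 (SE), adjusted p = 2.11e-05). Ccr2, the receptor that brings inflammatory monocytes out of the marrow, went from 124 to 539 in median (log2 change 2.03 ± 0.24 (SE), adjusted p = 5.06e-06), and Fcgr4, an activating receptor for IgG, from 196 to 645 (log2 change 1.69 ± 0.24 (SE), adjusted p = 2.82e-05). For all 3 the days did not overlap. Arg1, arginase of alternatively activated macrophages, passed with a wider error (log2 change 1.46 ± 0.49 (SE), adjusted p = 0.0347): its day 4 signals were 23.2 to 376, where the low value was that of day 4 mouse 8 and the other 5 arrays lay at 219.7 to 376.

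The lymphoid, dendritic and mast cell lists each gave at most 2 calls. Of 10 dendritic cell genes 2 rose, where 9.09% of all genes did: the lectin Clec10a (1.14 ± 0.30, adjusted p = 0.00829) and the actin-bundling Fscn1 (0.69 ± 0.16, adjusted p = 0.00249). No T cell or NK cell gene of the 5 tested was called by limma, and 2 had an unadjusted p below 0.05: Thy1 stood at 0.38 ± 0.15 (adjusted p = 0.0782) and the granule protease Gzma at 1.09 ± 0.45 (adjusted p = 0.0831). Of the 27 T and NK cell genes listed 5 were tested, so the list says little about those cells. Among 17 B and plasma cell genes Prdm1, a regulator of plasma cells that other cells use as well, rose (log2 change 1.18 ± 0.18 (SE), adjusted p = 6.95e-05) and Pigr, the epithelial receptor that carries IgA to the lumen, fell (log2 change -0.34 ± 0.061 (SE), adjusted p = 3.35e-04). Kit, of mast cells and of the pacemaker cells of gut muscle, changed by -0.44 ± 0.11 on the log2 scale as the single call among 3 mast cell and eosinophil genes (adjusted p = 0.00777).

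Most CXC chemokines rose. Of 14 CXC chemokines 10 rose (71.4%, against 9.09% of all genes) and none fell, with a median of 1.30 beside -0.03 for all genes. Of the 14, 4 passed the filter only through the day 6 arrays, and of the other 10, 6 rose, with a median of 0.96. Cxcl2, Cxcl1, Cxcl5 and Cxcl3 are ligands of the neutrophil receptor Cxcr2. Cxcl2 had signals of 50.2, 76 and 218 at day 4 and 585, 1432 and 2942 at day 6, and Cxcl5 of 28.5, 104 and 150.0 and 484, 879 and 2857. For both genes the lowest array of day 6 exceeded the highest of day 4, and the fitted change was 12.9-fold for Cxcl2 (log2 change 3.69 ± 0.32, adjusted p = 3.65e-07) and 9.47-fold for Cxcl5 (3.24 ± 0.37, adjusted p = 5.06e-06). Cxcl1 changed by 2.57 ± 0.27 (adjusted p = 2.13e-06) and Cxcl3 by 2.55 ± 0.33 (adjusted p = 1.27e-05), again without overlap. Of these 4, Cxcl2 alone was already called higher between day 0 and day 4 (1.23 ± 0.33, adjusted p = 0.0134); the adjusted p of the other 3 in that step was 0.26 for Cxcl5, 0.454 for Cxcl1 and 0.0913 for Cxcl3. Whether the 4 genes differ in that step was not tested.

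Among 15 CC and other chemokine ligands 7 rose (46.7%, against 9.09% of all genes) and 1 fell. The median was 0.71, or 0.45 without day 6 mouse 21 and 0.47 without day 6 mouse 29. Ccl2 and Ccl7, ligands of the monocyte receptor Ccr2, went from median signals of 186 and 90.1 to 799 and 451, with log2 changes of 2.03 ± 0.29 (adjusted p = 2.61e-05) and 2.22 ± 0.31 (adjusted p = 2.92e-05). Ccl8 changed by 1.70 ± 0.21 (adjusted p = 9.51e-06) and Ccl9 by 1.31 ± 0.16 (adjusted p = 7.12e-06). These 4 ligands all separated the days. The receptors that read such signals rose in 7 of 15 cases (46.7%, against 9.09% of all genes), with 1 lower. Besides Ccr2 they included Fpr2, a receptor for formylated peptides (log2 change 2.14 ± 0.35 (SE), adjusted p = 1.21e-04), the chemokine receptor Ccr1 (log2 change 1.30 ± 0.19 (SE), adjusted p = 4.19e-05) and the receptor for complement fragment C5a, C5ar1 (log2 change 1.01 ± 0.23 (SE), adjusted p = 0.00308). Of these 3, the days overlapped for Ccr1.

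The molecules that hold leukocytes to vessels rose in 11 of 21 cases (52.4%, against 9.09% of all genes), with 1 lower. Selp, P-selectin of activated endothelium and platelets, had signals of 129.7, 216 and 314 at day 4 and 489.6, 704 and 1446 at day 6 (log2 change 1.77 ± 0.28 (SE), adjusted p = 1.04e-04). The integrin chains Itgam and Itgb2, which pair on neutrophils and macrophages, changed by 1.44 ± 0.20 (adjusted p = 2.29e-05) and 1.20 ± 0.19 (adjusted p = 9.34e-05), and their ligand Icam1 by 1.01 ± 0.17 (adjusted p = 1.98e-04). All 4 separated the days without overlap.

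Inflammatory cytokines rose in 10 of 17 cases (58.8%, against 9.09% of all genes) and fell in none, with a median of 0.92. Of the 17, 7 passed the filter only through the day 6 arrays, and of the other 10, 5 rose, with a median of 0.64. Il1b, made by myeloid cells and released after inflammasome cleavage, had signals of 94.5, 174 and 420.3 at day 4 and 831, 2280.2 and 3529 at day 6 (log2 change 3.29 ± 0.32 (SE), adjusted p = 1.30e-06). Il6, which drives the acute phase, went from 35.6, 79.7 and 142 to 507, 683 and 1454 (log2 change 2.88 ± 0.30 (SE), adjusted p = 2.13e-06). Neither gene overlapped between the days. In the step before, from day 0 to day 4, the change was 0.37 ± 0.33 for Il1b (adjusted p = 0.476) and 2.04 ± 0.32 for Il6 (adjusted p = 3.29e-04). Il11, a stromal relative of Il6 (2.74 ± 0.40, adjusted p = 4.21e-05), and Csf3, the growth factor for granulocytes (2.27 ± 0.38, adjusted p = 1.51e-04), rose too.

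Receptors and feedback genes of these cytokines were higher in 12 of 22 cases (54.5%, against 9.09% of all genes) and lower in none (median 0.49). Socs3, the inhibitor that Il6-type signals induce, went from 939 to 3451 in median (log2 change 2.14 ± 0.21 (SE), adjusted p = 1.31e-06). Csf3r, the receptor for Csf3 on neutrophils, changed by 1.85 ± 0.32 (adjusted p = 2.45e-04), the oncostatin M receptor Osmr by 1.33 ± 0.15 (adjusted p = 2.85e-06) and the decoy receptor Il1r2 by 1.25 ± 0.30 (adjusted p = 0.00414). Il1r2 was the member of these 4 whose days overlapped. In the list of innate receptors and NF-kappaB feedback 18 of 29 rose (62.1%, against 9.09% of all genes) and none fell. Tnfaip2, a target of tumour necrosis factor (1.45 ± 0.20, adjusted p = 2.52e-05), the inflammasome sensor Nlrp3 (1.41 ± 0.32, adjusted p = 0.00257), Tlr13, a receptor for bacterial ribosomal RNA (1.12 ± 0.25, adjusted p = 0.00211), and the IkappaB-family Bcl3 (0.88 ± 0.15, adjusted p = 1.70e-04) led it.

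Phagocyte oxidase subunits, nitric oxide genes and Fc receptors rose in 12 of 13 cases (92.3%, against 9.09% of all genes), with a median of 0.95. Cybb, the catalytic subunit of the oxidase, went from 484 to 1010.0 in median (log2 change 1.11 ± 0.19 (SE), adjusted p = 1.52e-04), with overlap between the days. Fcgr1, the high-affinity IgG receptor, had signals of 119, 133 and 196 at day 4 and 199, 355 and 779.8 at day 6 (log2 change 1.41 ± 0.24 (SE), adjusted p = 1.83e-04). Of 15 complement genes 9 rose (60%, against 9.09% of all genes) and none fell. Among them were Cfp, properdin, which stabilizes the alternative pathway convertase (1.19 ± 0.24, adjusted p = 8.94e-04), and the macrophage product C1qa (0.83 ± 0.18, adjusted p = 0.00204).

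Interferon-stimulated genes were higher in 24 of 32 cases (75%, against 9.09% of all genes) and lower in none, with a median of 0.93. Cxcl9 and Cxcl10, which attract T and NK cells, went from 206 to 1084 and from 270.2 to 1055 in median signal, with log2 changes of 2.29 ± 0.42 (adjusted p = 3.96e-04) and 1.85 ± 0.37 (adjusted p = 8.19e-04). Both overlapped between the days. Oas3, an oligoadenylate synthetase, had signals of 27.5, 71.2 and 211 at day 4 and 273, 339.5 and 767 at day 6 (log2 change 2.13 ± 0.44 (SE), adjusted p = 0.00118). The highest of these was day 6 mouse 4, the mouse with the highest mean of the whole list (11.07, log2, against 9.58 in mouse 29, the lowest of day 6). Zbp1, a sensor of nucleic acid in Z form, changed by 1.56 ± 0.27 (adjusted p = 1.88e-04).

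Antigen presentation was followed in 2 lists. In the list of MHC class I and the immunoproteasome 10 of 12 rose, with a median of 0.34, and in MHC class II 1 of 10 (beside 9.09% of all genes), with a median of 0.36, or 0.23 without day 4 mouse 7. The peptide transporter subunit Tap1 changed by 1.0 ± 0.21 (adjusted p = 0.00121), the immunoproteasome subunit Psmb9 by 0.82 ± 0.18 (adjusted p = 0.00167) and Nlrc5, the transactivator of class I genes, by 1.02 ± 0.21 (adjusted p = 9.81e-04). These 3 separated the days. The class II call was H2-DMa, which loads peptides onto class II (log2 change 0.57 ± 0.21 (SE), adjusted p = 0.0483). With median centring 6 of the 12 class I genes were called higher.

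Acute phase and antimicrobial genes rose in 14 of 20 cases (70%, against 9.09% of all genes) and fell in 1 (median 1.20). Of the 20, 3 passed the filter only through the day 6 arrays, and of the other 17, 12 rose, with a median of 0.94. Saa3, a serum amyloid A made in inflamed tissue, had signals of 361, 580.3 and 1320.5 at day 4 and 1679, 6123 and 13125 at day 6 (log2 change 3.09 ± 0.37 (SE), adjusted p = 5.85e-06). Ptx3, a soluble pattern receptor, went from 79.9 to 549.7 in median (log2 change 3.06 ± 0.46 (SE), adjusted p = 5.04e-05). Reg3g, an epithelial lectin that kills Gram-positive bacteria, reached 9083, 13809 and 21481 from 724, 2450.0 and 4861 (log2 change 2.78 ± 0.45 (SE), adjusted p = 1.15e-04). These 3 separated the days, although Reg3g was already spread over 799.7 to 3699 at day 2.

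Proteases and their inhibitors rose in 14 of 21 cases (66.7%, against 9.09% of all genes) and fell in 1 (median 1.12). The stromelysins Mmp3 and Mmp10, which cleave many matrix proteins, and the collagenase Mmp13 led the list. Mmp3 had signals of 247, 589 and 825 at day 4 and 2350.2, 3008 and 5852 at day 6 (log2 change 2.68 ± 0.26 (SE), adjusted p = 1.30e-06), and it was among the genes that had also risen from day 0 to day 4 (2.39 ± 0.27, adjusted p = 1.41e-05). Mmp10 went from 108, 254 and 577 to 1039, 2181 and 4337 (log2 change 2.91 ± 0.34 (SE), adjusted p = 5.06e-06). Mmp13 changed by 2.66 ± 0.37 (adjusted p = 2.42e-05), and their inhibitor Timp1 by 1.99 ± 0.20 (adjusted p = 1.31e-06). All 4 rose in both steps and none overlapped in the later one.

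Matrix and fibroblast genes were higher in 11 of 24 cases (45.8%, against 9.09% of all genes) and lower in none, with a median of 0.27. Thbs1, an activator of latent TGF-beta (1.27 ± 0.19, adjusted p = 5.13e-05), Lox, which crosslinks collagen (0.94 ± 0.24, adjusted p = 0.00636), the stromal glycoprotein Pdpn (0.87 ± 0.13, adjusted p = 4.34e-05) and the basement membrane collagen Col18a1 (0.78 ± 0.17, adjusted p = 0.00188) had the largest rises. Pdpn had signals of 828, 1245 and 1389 at day 4 and 1639, 2236 and 2869 at day 6, without overlap. In the prostanoid and leukotriene list 2 of 17 rose (11.8%, against 9.09% of all genes) and 1 fell (5.88%, against 13.7%). They were Ptgs2, the inducible cyclooxygenase, which went from 328 to 1078 in median (log2 change 1.75 ± 0.32 (SE), adjusted p = 3.45e-04), Alox5ap, which presents arachidonate to lipoxygenase (log2 change 1.29 ± 0.18 (SE), adjusted p = 2.55e-05), and Hpgd, which inactivates prostaglandins (log2 change -0.58 ± 0.099 (SE), adjusted p = 1.87e-04). The count of rises was 5 without day 6 mouse 3 and 4 without day 6 mouse 1.

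**Figure D2:**
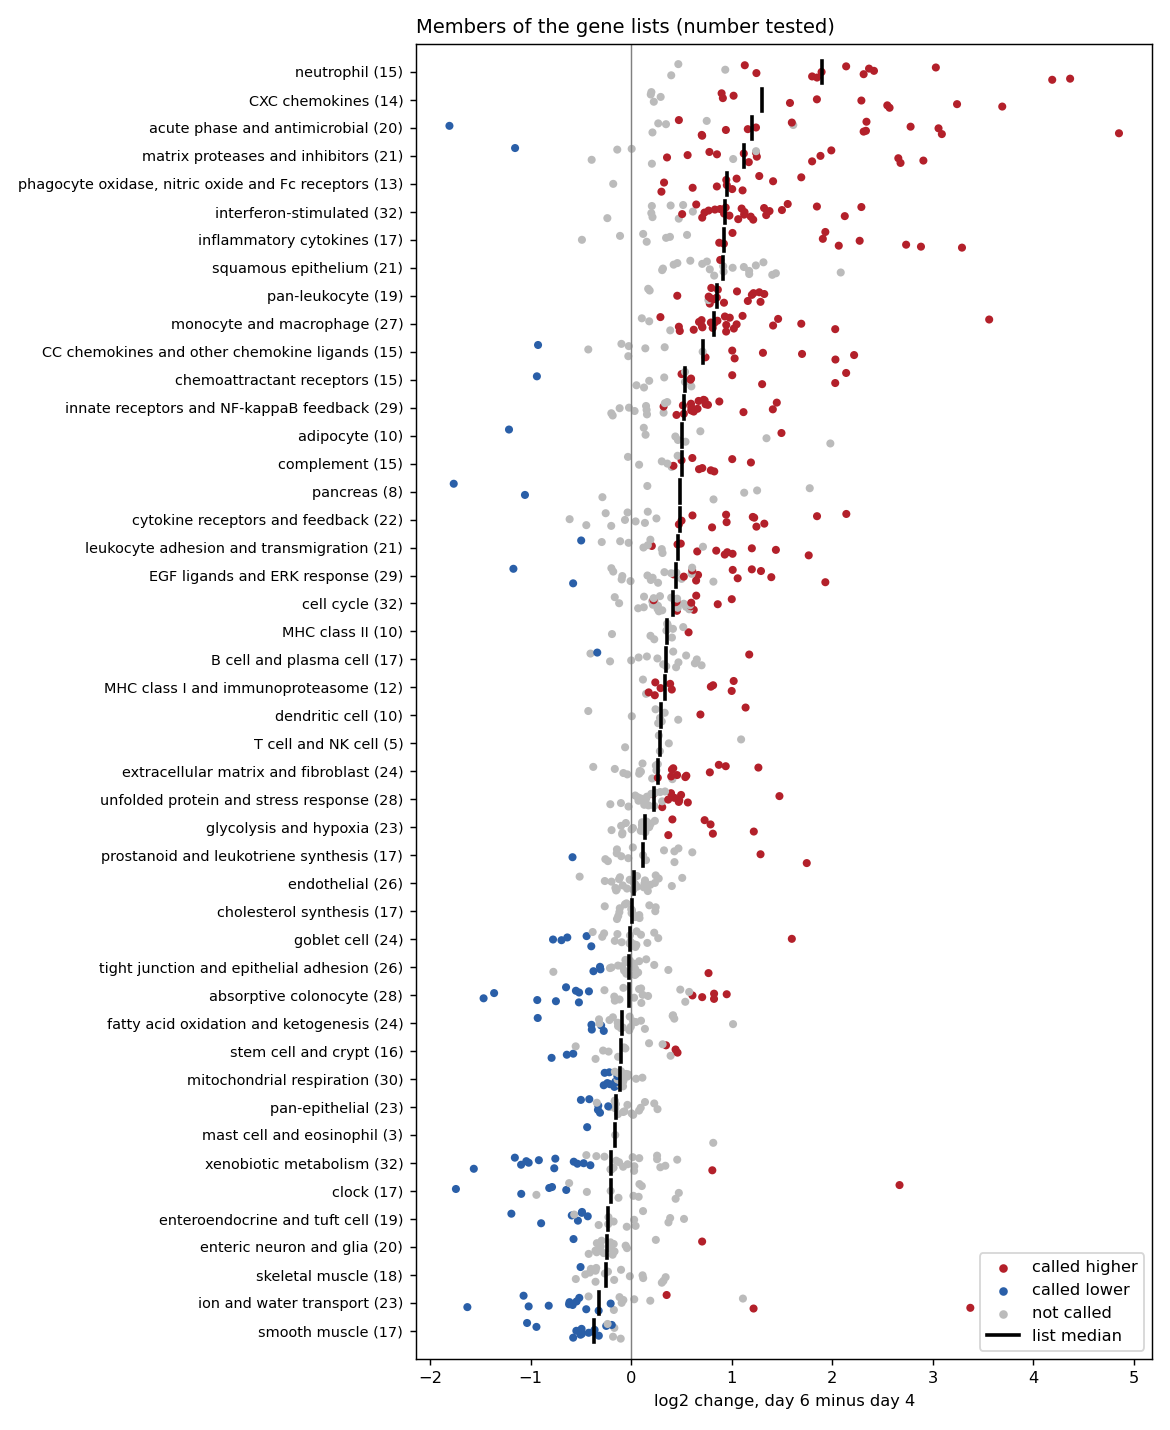
Log2 change from day 4 to day 6 of each tested member of 46 gene lists (points, coloured by call) with the median of the list as a black line, ordered by median, and the number of members tested in brackets. Of the lists drawn, which leave out the posterior Hox list added later, neutrophil genes and CXC chemokines have the highest medians (1.90 and 1.30) and smooth muscle the lowest (-0.37). Some members drawn passed the filter only through the day 6 arrays, where they were high. Without such members the medians are 1.25 for neutrophil genes and 0.96 for CXC chemokines, beside 1.15 for proteases and inhibitors.

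The largest fall without overlap was that of Mptx1, a mucosal pentraxin of colonic epithelium. Its lowest, median and highest signals were 10921, 15321 and 23607 at day 4 and 198, 863 and 10860.2 at day 6 (log2 change -3.52 ± 0.57 (SE), adjusted p = 1.08e-04). The highest array of day 6, mouse 3, lay just below the lowest of day 4, and mouse 7 was the lowest. Cyp2c68, a cytochrome P450, went from 4057 to 596 in median (log2 change -2.41 ± 0.30 (SE), adjusted p = 1.16e-05), and Ttr, transthyretin, the carrier of thyroid hormone, from 2507 to 504 (log2 change -2.33 ± 0.28 (SE), adjusted p = 6.86e-06).

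Other genes among the 15 largest falls without overlap belonged to varied classes. The fucosyltransferase Fut9 changed by -2.12 ± 0.30 (adjusted p = 2.59e-05), the chloride intracellular channel protein Clic6 by -2.02 ± 0.22 (adjusted p = 2.85e-06), the aspartic protease cathepsin E, Ctse, by -2.02 ± 0.33 (adjusted p = 1.15e-04) and the serotonin transporter Slc6a4 by -1.99 ± 0.26 (adjusted p = 1.43e-05). Slc6a4 had signals of 440.0, 557 and 600.1 at day 4 and 60.3, 106 and 299 at day 6. Itih2, a heavy chain of inter-alpha-trypsin inhibitor, changed by -2.01 ± 0.36 (adjusted p = 2.73e-04), Wfdc2, a secreted protein with a protease inhibitor fold, by -1.70 ± 0.27 (adjusted p = 9.49e-05) and Rasd2, a small GTPase, by -1.92 ± 0.33 (adjusted p = 2.34e-04). Nxpe4 (-1.79 ± 0.25, adjusted p = 2.59e-05), Nxpe2 (-1.76 ± 0.22, adjusted p = 1.19e-05), AI854703 (-2.45 ± 0.36, adjusted p = 4.34e-05) and 5033404E19Rik (-2.26 ± 0.31, adjusted p = 2.04e-05) complete the group together with Hoxb13, described next. Of these 15 genes, none was called between day 0 and day 4.

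**Figure D3:**
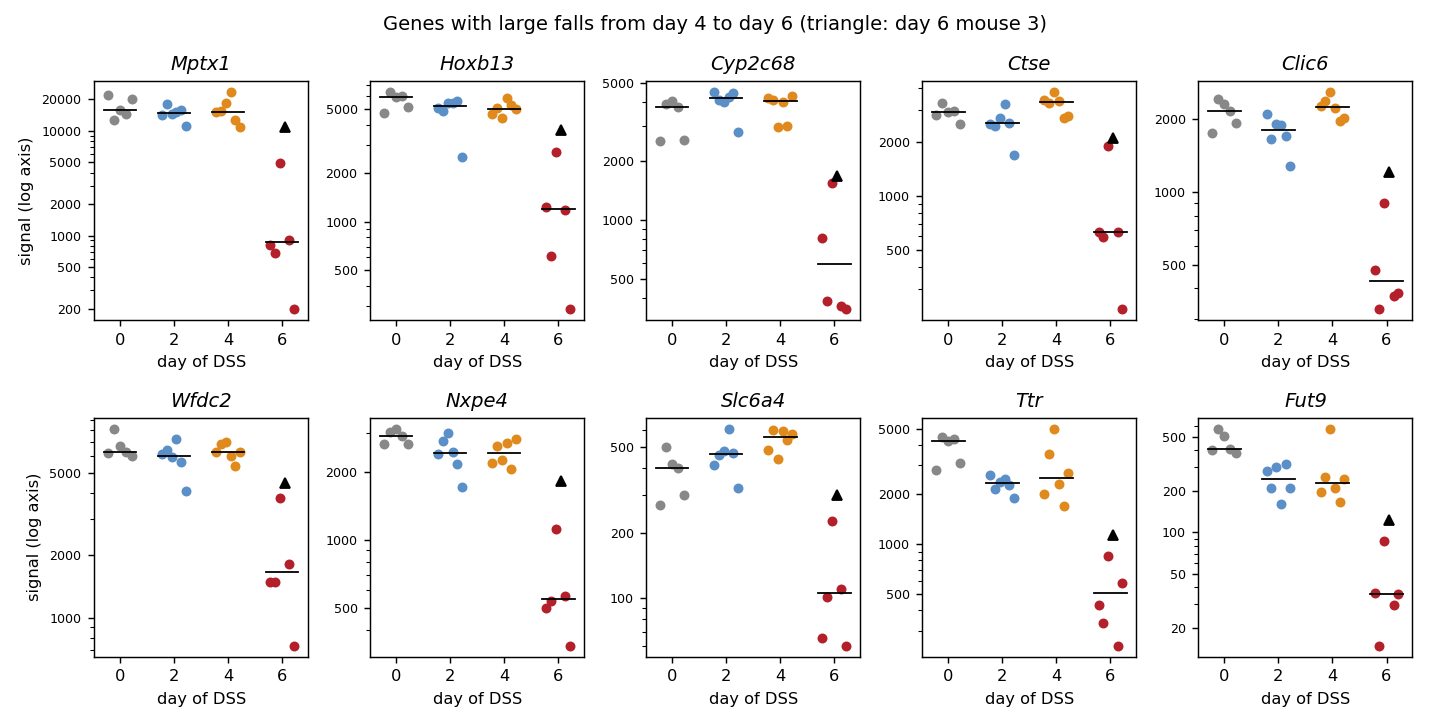
Signal of 10 genes with large falls on each array (points, log axis) against the day of DSS, with the median of each day as a line. For each gene all 6 arrays of day 6 lie below all 6 of day 4, and mouse 3 (triangle) is the highest of its day.

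Posterior Hox genes, which mark position along the hindgut, were among the genes that fell. This list was added after the data were seen, and Hoxb13 is itself among the largest falls, so its count is a description. Hoxb13, the most posterior member of its cluster, had signals of 4367, 5022 and 5884 at day 4 and 286, 1206 and 3703 at day 6 (log2 change -2.08 ± 0.38 (SE), adjusted p = 3.67e-04). Of 10 posterior Hox genes measured 5 fell (50%, against 13.7% of all genes), with a median of -0.53. Without day 4 mouse 8 and day 6 mouse 1, 3 of the 10 fell, beside 1270 of all 12463 genes. Their summed signal was 11482 to 13538 on the day 4 arrays and 3566 to 10145 on those of day 6, highest in mouse 3 and lowest in mouse 7. Mouse 3 was the highest of its day for 14 of the 15 largest falls and mouse 29 for the remaining 1, while mouse 7 was the lowest for 8. The part of the position of the sampled piece in these falls was not tested.

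Mouse 3 and mouse 29 lay nearest to day 4 over many genes. Among the 1133 genes that rose, mouse 3 was the nearest of its day to the day 4 mean for 41.6% and mouse 29 for 22.7%, and among the 1712 that fell for 39.7% and 26.2%. The median difference from the day 4 mean over the genes that rose was 0.34 (log2) in mouse 3 and 0.42 in mouse 29, and 0.49 to 0.71 in the other 4. Over the genes that fell it was -0.26 in mouse 3, -0.29 in mouse 29 and -0.41 to -0.51 in the others. These genes were called with the same arrays, so the values describe the spread of the animals. Without mouse 3, 1225 genes rose and 1833 fell. Some lists had another order: interferon-stimulated genes were lowest in mouse 29 (9.58) and highest in mouse 4, and xenobiotic metabolism was lowest in mouse 21 (mean 10.3, log2) and highest in mouse 1.

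**Figure D4:**
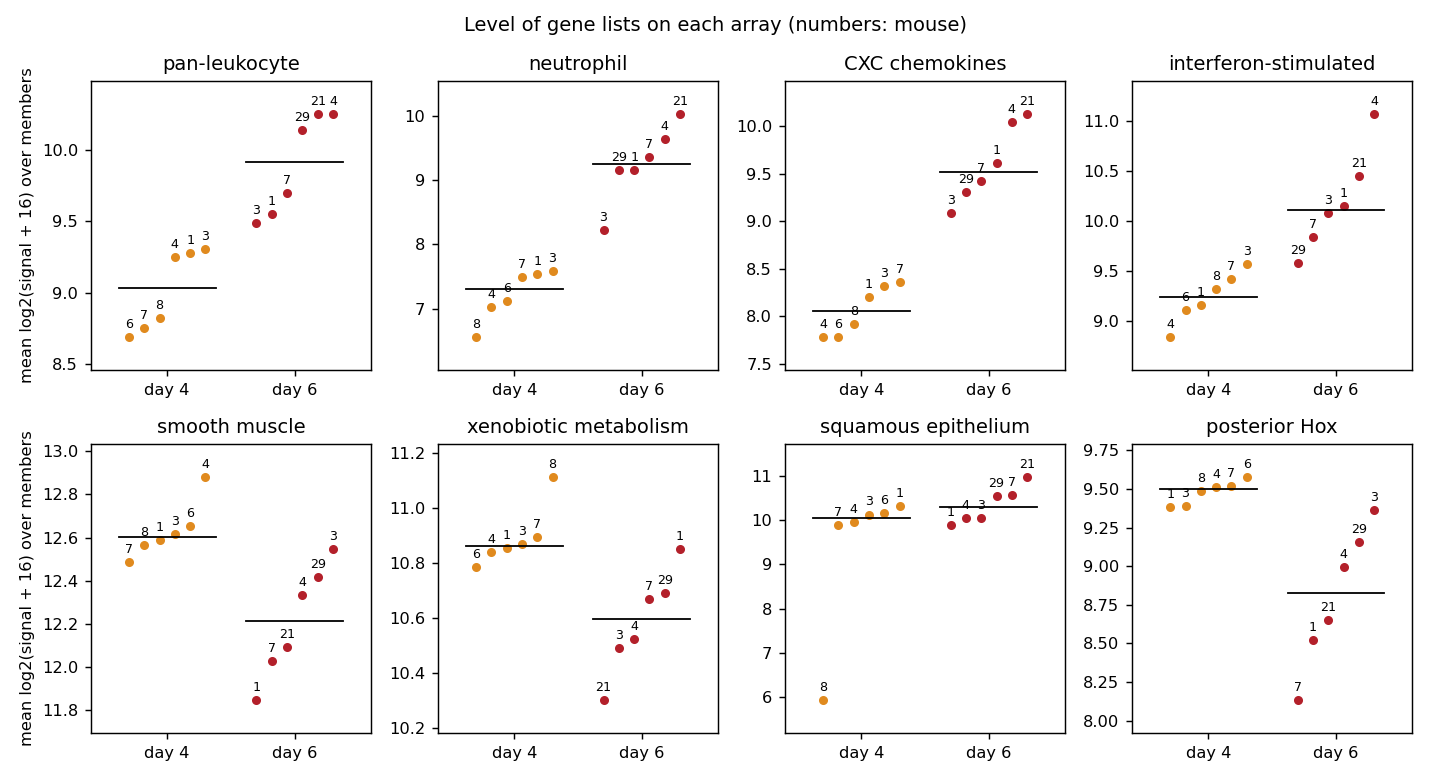
Mean log2(signal + 16) over the members of 8 gene lists on each array of day 4 and day 6, with the mouse number above each point and the median of the day as a line. In the 4 panels of the upper row the days do not overlap, and the squamous panel shows day 4 mouse 8 at 5.94.

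Epithelial lists changed in part and in both directions. Of 23 pan-epithelial genes 6 fell (26.1%, against 13.7% of all genes) and none rose, with a median of -0.15, or -0.09 without day 6 mouse 21. At day 4 the mean of this list was 12.38 to 12.43 (log2) in mice 1, 3 and 4 and 12.63 to 12.66 in mice 6, 7 and 8. Ehf (-0.50 ± 0.072, adjusted p = 3.68e-05) and Grhl2 (-0.42 ± 0.10, adjusted p = 0.00584), transcription factors of epithelial identity, fell by less than 1.5-fold. Of 28 absorptive colonocyte genes 5 rose (17.9%, against 9.09% of all genes) and 9 fell (32.1%, against 13.7%), with a median of -0.02. At day 4 the mean of this list was 11.215 to 11.81 (log2) in mice 1, 3 and 4. It was 12.04 to 12.16 in mice 6, 7 and 8, and 11.51 to 12.0 on the day 6 arrays. The median near 0 thus averages over unlike day 4 animals. Slc37a2, a sugar-phosphate exchanger (-1.47 ± 0.31, adjusted p = 0.00134), the phosphate carrier Slc20a1 (-1.36 ± 0.20, adjusted p = 4.59e-05) and Slc5a8, which takes up short-chain fatty acids (-0.93 ± 0.14, adjusted p = 5.43e-05), fell, and Slc51a, a subunit of the basolateral bile acid exporter, rose (0.95 ± 0.32, adjusted p = 0.0359). The 5 rises were 3 without day 4 mouse 8 and day 6 mouse 1.

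Goblet cell genes fell in 5 of 24 cases (20.8%, against 13.7% of all genes) and rose in 1, with a median of -0.01. The day 4 animals were unlike in this list: its mean was 11.51 to 11.78 (log2) in mice 1, 3 and 4 and 12.18 to 12.36 in mice 6, 7 and 8. The day 6 arrays lay at 11.62 to 12.10, so the median near 0 averages over unlike day 4 animals. The rise was Retnlb, a bactericidal protein of goblet cells, which went from 2575 to 10742 in median (log2 change 1.6 ± 0.43 (SE), adjusted p = 0.00945). Ern2, the stress sensor of mucus-secreting cells (-0.78 ± 0.15, adjusted p = 5.70e-04), Atoh1, the factor that commits secretory cells (-0.69 ± 0.17, adjusted p = 0.0057), and Creb3l1 (-0.63 ± 0.10, adjusted p = 1.20e-04) fell. Of 19 enteroendocrine and tuft cell genes 7 fell (36.8%, against 13.7% of all genes) and none rose. They included the tuft cell factor Pou2f3 (-1.19 ± 0.35, adjusted p = 0.0171), the hormone Insl5 of distal L cells (-0.89 ± 0.15, adjusted p = 1.96e-04), somatostatin, Sst (-0.53 ± 0.16, adjusted p = 0.0215), and the tuft cell kinase Dclk1 (-0.59 ± 0.089, adjusted p = 5.70e-05). Dclk1 had 7 probe sets, and their mean gave 0.14 in place of this value. Insl5 had signals of 3873, 4534 and 5603 at day 4 and 1632, 2601 and 3285 at day 6, without overlap.

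Of 16 stem cell and crypt genes 3 rose and 3 fell (18.8% each, against 9.09% and 13.7% of all genes). Ascl2, the regulator of the crypt stem cell state (-0.79 ± 0.24, adjusted p = 0.0184), and Rnf43 (-0.64 ± 0.20, adjusted p = 0.0225) and Znrf3 (-0.58 ± 0.11, adjusted p = 4.59e-04), ligases that remove Wnt receptors, fell. The adhesion receptor Cd44, which leukocytes carry as well, rose (0.46 ± 0.13, adjusted p = 0.0148). Cell cycle genes rose in 11 of 32 cases (34.4%, against 9.09% of all genes) and fell in none, with a median of 0.42. Rrm2, of deoxynucleotide synthesis, changed by 1.0 ± 0.20 (adjusted p = 0.0011), the mitotic kinase Plk1 by 0.86 ± 0.22 (adjusted p = 0.00647), Ube2c by 0.65 ± 0.19 (adjusted p = 0.0153) and cyclin A, Ccna2, by 0.62 ± 0.18 (adjusted p = 0.0139). The count of 11 was 7 without day 4 mouse 8 and day 6 mouse 1, 7 without day 4 mouse 3, 7 without day 6 mouse 7 and 7 with median centring.

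Of 26 junction genes 1 rose and 3 fell, shares of 3.85% and 11.5% that lie below those of all genes. The rise was Cldn4 (0.77 ± 0.19, adjusted p = 0.00582), a claudin that had fallen from day 0 to day 4 (-0.81 ± 0.20, adjusted p = 0.00905), and occludin, Ocln, fell (-0.30 ± 0.10, adjusted p = 0.0347). Without day 6 mouse 3 there were 5 falls. Ion and water transport fell in 12 of 23 cases (52.2%, against 13.7% of all genes) and rose in 3 (13%, against 9.09%), with a median of -0.32. Best2, an anion channel of goblet cells, had signals of 601, 712 and 868 at day 4 and 111, 179 and 544 at day 6 (log2 change -1.63 ± 0.27 (SE), adjusted p = 1.67e-04). Trpm6, the magnesium channel, fell as well (-1.07 ± 0.23, adjusted p = 0.00179), and Clca4a rose as Clca4b did (1.22 ± 0.28, adjusted p = 0.00259). Probe sets of close relatives, such as these genes, may take signal from one another, which was not tested.

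Xenobiotic metabolism genes fell in 12 of 32 cases (37.5%, against 13.7% of all genes) and rose in 1, and 8 of the 32 lay lower on every day 6 array than on any of day 4, as 4.5% of all genes did. Cyp2f2, a cytochrome P450, had signals of 879, 995 and 1346 at day 4 and 181, 337 and 676 at day 6 (log2 change -1.56 ± 0.27 (SE), adjusted p = 1.86e-04). Alcohol dehydrogenase, Adh1, changed by -1.16 ± 0.18 (adjusted p = 9.49e-05), the glucuronosyltransferase Ugt2b35 by -1.09 ± 0.20 (adjusted p = 3.77e-04) and the sulphotransferase Sult1a1 by -1.04 ± 0.15 (adjusted p = 3.94e-05). The step after day 4 was called lower than the step before it for 9 of the 32 genes, and for 9.64% of all genes.

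Some genes of energy metabolism changed. Of 30 mitochondrial respiration genes 10 fell (33.3%, against 13.7% of all genes) and none rose, with a median of -0.11, and the count was 6 without day 4 mouse 8 and day 6 mouse 1, or without day 4 mouse 8, day 6 mouse 4, day 6 mouse 7 or day 6 mouse 21 alone. In the list of fatty acid oxidation and ketogenesis 5 of 24 fell (20.8%) and none rose, or 8 without day 6 mouse 1. They included Acadm, the medium-chain acyl-CoA dehydrogenase (-0.39 ± 0.065, adjusted p = 1.51e-04), the thiolase Acaa2 (-0.39 ± 0.086, adjusted p = 0.00195) and Ppargc1a, which coactivates mitochondrial biogenesis (-0.93 ± 0.28, adjusted p = 0.0181). Of 23 glycolysis and hypoxia genes 6 rose (26.1%, against 9.09% of all genes). Among them were Pfkfb3, which makes the activator of phosphofructokinase (1.22 ± 0.20, adjusted p = 1.15e-04), and hexokinase, Hk2 (0.81 ± 0.14, adjusted p = 1.98e-04). The unfolded protein and stress response list rose in 10 of 28 cases (35.7%), with haem oxygenase, Hmox1 (1.48 ± 0.24, adjusted p = 1.43e-04), ahead of the endoplasmic reticulum protein Sdf2l1 (0.56 ± 0.13, adjusted p = 0.00309). That count was 6 without day 4 mouse 8 and day 6 mouse 1, 6 without day 4 mouse 1 and 4 with median centring. None of 17 cholesterol synthesis genes was called by limma, and 1 had an unadjusted p below 0.05.

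Smooth muscle genes turned back after day 4. Of 17 smooth muscle genes 13 fell (76.5%, against 13.7% of all genes) and none rose after day 4, with a median of -0.37. From day 0 to day 4, 12 had risen, as 12.1% of all genes had, and both counts use the day 4 arrays. With the level of the hybridization controls as a covariate, none of the 17 was called higher in the step from day 0 to day 4 by limma, 8 had an unadjusted p below 0.05 and the median change of that step was 0.35, in place of 0.37. The difference between the step after day 4 and the step from day 2 to day 4 was itself called lower for 10 of the 17, against 9.64% of all genes. Myh11, the smooth muscle myosin heavy chain, had signals of 9489, 11209.6 and 13033 at day 0, 14194, 14739 and 19526 at day 4 and 7964, 10334 and 12636 at day 6. It changed by 0.48 ± 0.11 (adjusted p = 0.00378) up to day 4 and by -0.58 ± 0.10 (adjusted p = 2.32e-04) after it, with day 4 mouse 4 as the highest array. Pln, which restrains the calcium pump of muscle, changed by -1.03 ± 0.13 (adjusted p = 1.27e-05) and the filament protein Synm by -0.94 ± 0.15 (adjusted p = 7.32e-05) after day 4, all 3 without overlap.

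Among 20 enteric neuron and glia genes 1 rose and 1 fell after day 4 (5% each, against 9.09% and 13.7% of all genes). From day 0 to day 4, 16 had risen, as 12.1% of all genes had, and the difference of the steps was called lower for 9 (9.64% of all genes). Scg2, a neuropeptide precursor, changed by 0.79 ± 0.14 (adjusted p = 5.75e-04) and then by -0.57 ± 0.13 (adjusted p = 0.00247), and Gfap, the glial filament, rose in both steps (0.71 ± 0.16 after day 4, adjusted p = 0.0025). The count of falls was 4 when day 6 mouse 3, day 6 mouse 4, day 4 mouse 6 or day 4 mouse 7 was left out, and 4 with median centring. Of 26 endothelial genes 18 had risen from day 0 to day 4 and none was called after it by limma, where 2 had an unadjusted p below 0.05 and the median was 0.03. At day 4 the mean of the endothelial list was 8.83 to 9.11 (log2) in mice 1, 3 and 4 and 8.47 to 8.53 in mice 6, 7 and 8. The lowest p in that list was that of endoglin, Eng (0.41 ± 0.15, adjusted p = 0.0503). The hybridization controls had dimmed between day 0 and day 4, as given above, and with their level as a covariate 7 of the 20 neuron and glia genes and 2 of the 26 endothelial genes were called higher in that step. The median change of the step was of like size with the covariate and without it, 0.85 and 0.69 for the neuron and glia genes and 0.63 and 0.65 for the endothelial genes.

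Genes that turned back after day 4 were counted over the whole array. Between day 0 and day 4, 1504 genes had risen (12.1%) and 539 had fallen (4.32%). Of these, 295 rose to day 4 and fell after it (2.37% of all genes) and 100 fell to day 4 and rose after it (0.802%). Both steps share the day 4 arrays, so an array of day 4 that lies high or low adds to both. Without day 4 mouse 4 the counts were 161 and 61, without day 4 mouse 8 and day 6 mouse 1 they were 184 and 75, and with the level of the hybridization controls as a covariate they were 19 and 3. That covariate left 139 genes higher and 32 lower in the step from day 0 to day 4. Median centring left 50 genes in the group that turned back after falling. Against day 2 in place of day 0 the counts were 286 and 108. The hybridization controls of day 2 (11.1313 to 11.4394, log2) also lay above all those of day 4 (10.8022 to 11.1297). That comparison therefore holds a difference in the controls as well. At day 6, 260 of the 295 and 93 of the 100 were not called different from day 0, 21 and 6 were still on the side of day 4, and 14 and 1 had passed to the other side.

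Several clock genes were among those that rose and turned back. Dbp, a transcription factor with a strong daily rhythm, had lowest, median and highest signals of 360.5, 574 and 1841 at day 0, 2112, 2721 and 3437 at day 2, 890.3, 1911 and 3384 at day 4 and 313, 509 and 1154 at day 6. It changed by 1.43 ± 0.37 up to day 4 (adjusted p = 0.0114) and by -1.74 ± 0.36 after it (adjusted p = 0.00109), with overlap between days 4 and 6. Per3, a period gene, changed by 1.16 ± 0.25 and then -1.09 ± 0.24 (adjusted p = 0.0029 and 0.00181), and Tef, a relative of Dbp, by 0.81 ± 0.22 and then -0.81 ± 0.21 (adjusted p = 0.0157 and 0.00793). The mean of the clock list at day 4 was 9.18 to 9.34 (log2) in mice 1, 3 and 4, within the 8.95 to 9.38 of day 6. In day 4 mice 6, 7 and 8 it was 9.63 to 9.66, so at the level of the list the height at day 4 lay in these animals. Of 17 clock genes 5 fell after day 4 (29.4%, against 13.7% of all genes) and 1 rose. The rise was Nfil3, a repressor at the sites that Dbp binds and a gene that cytokines induce, from 62.4, 123 and 235 at day 4 to 340.5, 888 and 1659 at day 6 without overlap (log2 change 2.67 ± 0.35 (SE), adjusted p = 1.65e-05). The hour at which each cohort was killed is not given, and its part in the rhythmic genes was not tested.

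Several genes of stroma and secreted proteins were in the same group. Fmod, a proteoglycan that binds collagen, had signals of 67.5, 86.7 and 95 at day 0, 132, 212 and 292 at day 4 and 70.7, 102 and 129 at day 6. Its changes were 1.14 ± 0.18 (adjusted p = 3.40e-04) and -0.93 ± 0.17 (adjusted p = 4.68e-04). After day 4, Angptl7, a secreted angiopoietin-like protein, changed by -1.41 ± 0.18 (adjusted p = 1.14e-05), the collectin Colec10 by -1.25 ± 0.22 (adjusted p = 2.30e-04), the Wnt antagonist Nkd2 by -1.03 ± 0.16 (adjusted p = 5.75e-05), pleiotrophin, Ptn, by -0.78 ± 0.12 (adjusted p = 5.12e-05), and Dner, a Notch ligand, by -0.70 ± 0.15 (adjusted p = 0.00128). These 6 separated days 4 and 6 without overlap. The lipid transporter Abca8a (-0.73 ± 0.17, adjusted p = 0.00359) and the microfibril protein Mfap4 (-0.69 ± 0.22, adjusted p = 0.0228) overlapped.

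Genes that fell and then rose included several of growth factor signalling and a few of interferon. In the list of EGF ligands and the ERK response, 13 of 29 had fallen from day 0 to day 4, as 4.32% of all genes had. After day 4, 11 rose (37.9%, against 9.09% of all genes) and 2 fell (6.9%, against 13.7%). Dusp5, a phosphatase that ERK induces, had signals of 80, 186 and 272 at day 0, 8.81, 63.7 and 155 at day 4 and 149, 180.2 and 245 at day 6, and changed by -1.28 ± 0.39 and then 1.40 ± 0.37 (adjusted p = 0.0265 and 0.0083). The AP-1 subunit Junb changed by -1.22 ± 0.24 and then 1.01 ± 0.23 (adjusted p = 0.00153 and 0.00272), without overlap in the later step. Ereg, an EGF-family ligand (1.93 ± 0.32, adjusted p = 1.45e-04), the AP-1 subunit Fosl1 (1.29 ± 0.38, adjusted p = 0.0151) and the early response gene Ier3 (1.20 ± 0.16, adjusted p = 1.81e-05) rose after day 4 without a call in the step before.

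Of 32 interferon-stimulated genes 11 had risen and 2 had fallen from day 0 to day 4 (beside 12.1% and 4.32% of all genes), with a median of 0.30. The interferon genes that fell and then rose included Irf7, a master regulator of type I interferon (-0.85 ± 0.21 and then 0.93 ± 0.20, adjusted p = 0.0072 and 0.00153), Oasl1 (-0.82 ± 0.23 and then 0.98 ± 0.22, adjusted p = 0.0162 and 0.00219) and the helicase Ddx60 (-0.98 ± 0.27 and then 1.20 ± 0.26, adjusted p = 0.0146 and 0.00153). Creb3l3, a membrane-bound transcription factor of gut and liver, had signals of 182, 199 and 296 at day 0, 18.5, 107 and 204 at day 4 and 189, 265 and 367 at day 6 (log2 change 1.54 ± 0.37 (SE), adjusted p = 0.00371 after day 4). After day 4 the cytochrome P450 Cyp3a44 changed by 1.81 ± 0.32 (adjusted p = 2.32e-04), the small proline-rich protein Sprr2k by 1.19 ± 0.19 (adjusted p = 1.12e-04), the cell cycle gene Gtse1 by 1.12 ± 0.27 (adjusted p = 0.00463) and the epithelial surface protein Ceacam20 by 0.83 ± 0.23 (adjusted p = 0.0116). Of these 4, the days overlapped for Ceacam20. Of all genes that turned back, 90 of the 295 and 27 of the 100 separated days 4 and 6 without overlap. Over all genes tested 4.5% lay below and 3.13% above at day 6 without overlap. Among the 1133 genes called higher and the 1712 called lower, 927 in all did so, a like share, so this separation is not particular to genes that turned back.

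**Figure D5:**
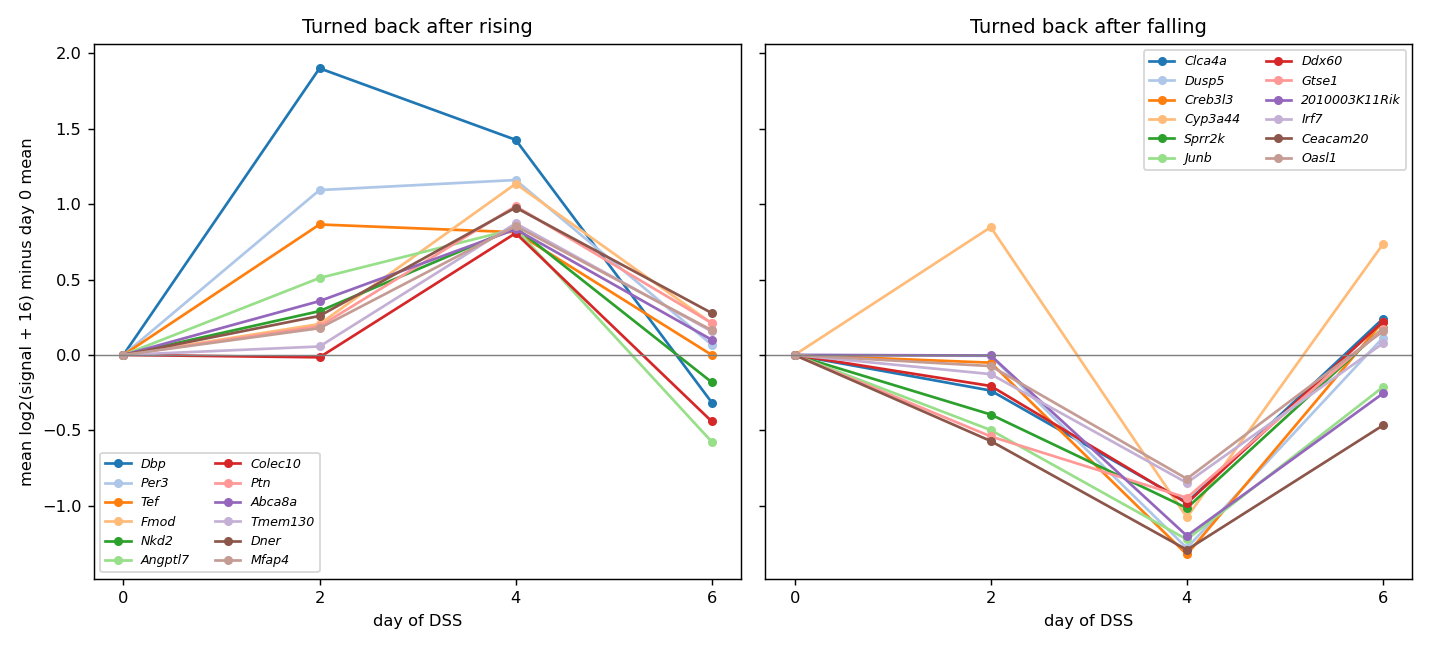
Mean log2(signal + 16) of each day minus the day 0 mean for the 12 genes with the largest turn in each direction, lines coloured by gene. In the left panel all lines fall after day 4, and Dbp lies above its day 0 mean at day 2; in the right panel all rise after day 4.

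The step after day 4 was also set directly against the step from day 2 to day 4. It was called higher for 501 genes (4.02%) and lower for 1201 (9.64%). Of the 1133 genes that rose after day 4, 379 were called higher in this difference, and of the 1712 that fell, 897 were called lower. The change after day 4, by which these genes were called, is part of the difference, so both counts are a description. The same holds for S100a9, S100a8, Hp and Mptx1, which were picked by that change. In the difference, S100a9 stood at 3.66 ± 0.92 (adjusted p = 0.0121), S100a8 at 3.93 ± 0.83 (adjusted p = 0.00476), Hp at 5.32 ± 1.06 (adjusted p = 0.00366) and Mptx1 at -3.60 ± 0.99 (adjusted p = 0.0195). Gm6958 had one of the lowest values (-3.05 ± 0.88, adjusted p = 0.0247), although its change after day 4 alone did not pass (-1.20 ± 0.51, adjusted p = 0.0914). In both steps 187 genes rose from day 0 to day 4 and again after it, and 38 fell in both. The difference counts day 4 at both ends, so it depends on those 6 arrays most of all.

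Markers of neighbouring tissues gave at most 2 calls in each list. Called higher were 4.76% of squamous and 10% of adipocyte genes, against 9.09% of all genes. Called lower were 5.56% of skeletal muscle, 25% of pancreatic and 10% of adipocyte genes, against 13.7% of all genes. Of 21 squamous genes Sfn, the epithelial adaptor protein stratifin, was the single call (log2 change 0.89 ± 0.18 (SE), adjusted p = 0.00114), with a list median of 0.92 that became 0.12 without the low array, day 4 mouse 8. The summed squamous signal was 2337 to 45884 at day 4 and 32856 to 70825 at day 6. Skeletal muscle gave 1 fall in 18, Des, which is counted in the smooth muscle list as well. Its summed signal over the list was 11076 to 96425 at day 4 and 11498 to 113416 at day 6. Among 8 pancreatic genes Sycn (-1.76 ± 0.38, adjusted p = 0.00175) and Cela1 (-1.06 ± 0.33, adjusted p = 0.023) fell. Both were bright in untreated colon as well, with median signals of 14417 and 9960.5 at day 0. Of 10 adipocyte genes Cidec, of lipid droplets, rose (1.5 ± 0.46, adjusted p = 0.0199) and Pck1, of glucose and glycerol synthesis in several tissues, colon included, fell (-1.21 ± 0.16, adjusted p = 1.27e-05). The part of these tissues in the changes of other genes was not tested beyond leaving out the 2 arrays.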

How the data were processed

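Colon RNA from 23 animals was hybridized to Affymetrix Mouse Genome 430 2.0 arrays, each animal to its own. The values are linear signal intensities as deposited by the authors. MAS5, of unstated version, made them, per the submitters' processing notes. Each array had a trimmed mean of 500 (2% taken off either end) and a median of 97.3 to 121.4. Such scaling cannot show a change in total RNA.

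Of 45101 probe sets 64 were controls. The platform's annotation, which can be old, gave 34945 probe sets 1 symbol, 932 several and 9160 none, and only those with 1 were named. Probe sets above the median of their own array on at least 5 arrays were kept (24627, of them 21639 named). For the 5546 genes with several, the one with the highest mean was used, which gave 12463 genes. The log2 of signal + 16 of all 23 arrays was fitted in R 4.3.3 by limma 3.58.1, with a mean per day, lmFit and trended eBayes. Contrasts were two-sided and adjusted by the Benjamini-Hochberg method over all genes, with calls at an adjusted p of 0.05 or less. Log2 changes are given with their SE. The number of arrays limits the precision. The fit was tested on simulated data.

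Lists of genes (47, with 1151 entries, 1043 annotated and 904 tested; 46 with at least 3 tested, and markers of red blood cells not analysed here) were described by counts of called members and medians, with no test of a list. The comparison and the lists were chosen with earlier results of these data known. Named genes followed a rule: the 15 largest rises and falls called without overlap, up to 4 called members of each list (or the 2 of lowest p), the 12 largest turns in each direction and the 5 highest and lowest differences between steps. It named 187 genes, of which the text gives 165, chosen once those values were known. Promoters are from RefSeq's table for GRCm38.p6, matched by symbol. Alternatives were the pseudocount, filter, scaling, probe set rule, covariate and block terms, array weights and leaving out arrays. Where mice share a number between days, nothing says that they are paired.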

Additional observations from a re-analysis of the deposited data

Results flagged for a closer look

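For each of the 165 genes given, the highest or lowest array of day 4 and of day 6 was set against the other 5 of its day, as the gap to the nearest divided by the whole range. This ratio exceeded Dixon's critical value for 6 samples in 18 of 330 such groups, and chance gives about 1 in 20.

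Day 4 mouse 4 was the array concerned for 6 genes. Its signals were 572 for Fut9 (ratio 0.67, the other 5 at 167 to 253), 145 for Zbp1 (0.708, others 432 to 668), 1282 for Pln (0.719, others 813 to 925), 19526 for Myh11 (0.796, others 14194 to 15150), 430.1 for Slc37a2 (0.738, others 1231 to 1780) and 2810.2 for Slc20a1 (0.666, others 5454 to 7598). Both smooth muscle genes were high in this mouse and both colonocyte carriers low.

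Day 6 mouse 3 was the lowest for S100a9 (729 against 2811 to 4996, ratio 0.7), S100a8 (988 against 3362 to 6460, ratio 0.651) and Hdc (55.3 against 151 to 217, ratio 0.719), all 3 of the neutrophil list, and the highest for Sst (882 against 600.1 to 682, ratio 0.668). Day 6 mouse 29 was the highest for Fscn1 (2322 against 1131 to 1455, ratio 0.65) and Gtse1 (284 against 204 to 229, ratio 0.658) and the lowest for Tef (843 against 1283 to 1502, ratio 0.726). Day 6 mouse 4 was the highest for Oas3 (767 against 273 to 379, ratio 0.687).

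Day 4 mouse 8 was the lowest for Arg1 (23.2 against 219.7 to 376, ratio 0.779) and Pdpn (828 against 1163 to 1389, ratio 0.656). Day 4 mouse 3 was the highest for Fcgr1 (196 against 119 to 139, ratio 0.696), and day 4 mouse 7 the lowest for Sult1a1 (6316 against 8580 to 9829, ratio 0.693).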

How the results depend on the processing

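Over 26 alternatives planned with the tests, no gene called in both the reported fit and an alternative changed direction. Without 1 array at a time, the genes higher numbered 919 to 1225, those lower 1425 to 1833, those that turned back after rising 161 to 332 and after falling 61 to 123. The lowest counts of turned genes came without day 4 mouse 4. Genes higher were 719 with median centring and 678 with a stricter filter, which tested 7025 genes. Genes that turned back after rising were 19 with the hybridization controls as a covariate and 184 without day 4 mouse 8 and day 6 mouse 1, and after falling they were 3 with the covariate and 50 with median centring. For the covariate and the centring the cause was not tested. The day 2 comparison was chosen after seeing the data, as were the counts of list members by setting and the filter without day 6. Dclk1 turned from -0.59 to 0.14 with the mean of probe sets (adjusted p = 0.323). Fits with only days 4 and 6 gave 941 higher and 1315 lower.

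Mice 1, 3, 4 and 7 share a number between the days. The correlation of their deviations across genes was -0.124, -0.1, -0.155 and 0.115. Separate cohorts gave tissue at each day, so these are different animals, and 4 correlations cannot tell whether a shared number stands for anything else. With the mouse number as a replicate block, 768 genes were higher and 1219 lower, 246 and 107 turned back, and 24 of the 187 genes named by the rule lost their call. Numbers 21 and 29 occur on no other array, so with a term per number day 6 mice 21 and 29 no longer inform the comparison. The moves with the block therefore also reflect the loss of these arrays. Of list counts of at least 5, those that moved over 1.5 times with the block were 9 of 19 pan-leukocyte, 7 of 21 adhesion, 9 of 21 protease and 5 of 24 matrix genes higher, and 7 of 23 ion transport, 2 of 30 mitochondrial, 3 of 17 clock and 2 of 23 pan-epithelial genes lower. Counts under 5 moved by at most 2, to 0 of 10 dendritic cell and 1 of 16 stem cell genes higher among others. The number of arrays limits how small a change could be called.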
